A study of Mus musculus with 6 samples.

Results

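The brush border and enterocyte function genes described here are 8 genes chosen by name: Alpi, Lct, Sis, Car4, Vil1, Ezr, Cdhr2 and Muc13. They are among 9197 gene windows that could be tested in a table of DNA methylation levels. A window is the mm10 span of a gene plus 1000 bases on each side. All 8 windows had the 3 measured cytosines needed for a test, and together they held 298 listed positions, of which 204 had a value in all 6 libraries (complete sites). The assay was reduced representation bisulfite sequencing (RRBS), which covers cytosines in the CpG-rich part of the genome. The libraries came from mouse intestinal organoids of the Apc Min genotype, whose mutant Apc allele makes a shortened form of this Wnt inhibitor; controls and treated cultures alike carry it. Every culture grew in low glutamine medium. There were 3 libraries of control cultures and 3 of cultures given DM-aKG, an agent that the labels do not spell out; the title of the series names α-ketoglutarate. The sources used here do not give dose, duration, or the number, age and strain of the mice. Nothing says that the replicates came from separate animals or cultures, so p-values measure the spread between these libraries, which may be technical. The labels call the material primary cells, and an organoid culture mixes cell types, so a level is an average over them.

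Enterocytes are the absorptive cells of the intestinal lining, and their apical surface carries a brush border of microvilli. The microvilli hold digestive enzymes anchored in the membrane, and an actin core bundled and tied to the membrane by cytoskeletal proteins. Many genes of this kind, though not all, become more active as cells leave the crypt. Methylation of CpG cytosines near a gene start is commonly linked to low transcription. Transcripts were not measured here, so the cell types of the culture were not checked against expression of their markers.

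The promoters of the 8 genes differed widely in CpG content, and none of the positions in the methylation table fell into them. Shown are the 250 bases upstream of the start of the 3 genes richest in CG and of Sis, which has a single one, from RefSeq (GRCm38.p6, the assembly of mm10), with every CG in capitals. They lie at chr17:6782781-6783030 on the minus strand for Ezr, chr11:84957504-84957753 on the plus strand for Car4, chr1:74409134-74409383 on the plus strand for Vil1 and chr3:72967864-72968113 on the minus strand for Sis.
Ezr: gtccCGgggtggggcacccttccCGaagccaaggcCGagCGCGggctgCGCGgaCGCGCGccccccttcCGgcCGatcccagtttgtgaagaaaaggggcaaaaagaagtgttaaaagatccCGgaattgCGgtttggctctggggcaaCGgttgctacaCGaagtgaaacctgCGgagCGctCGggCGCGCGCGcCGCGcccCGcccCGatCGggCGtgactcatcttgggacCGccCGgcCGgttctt
Car4: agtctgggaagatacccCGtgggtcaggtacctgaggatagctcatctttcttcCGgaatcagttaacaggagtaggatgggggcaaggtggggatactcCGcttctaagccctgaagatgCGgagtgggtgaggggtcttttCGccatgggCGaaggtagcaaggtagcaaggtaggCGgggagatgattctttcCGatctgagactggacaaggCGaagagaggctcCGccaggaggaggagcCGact
Vil1: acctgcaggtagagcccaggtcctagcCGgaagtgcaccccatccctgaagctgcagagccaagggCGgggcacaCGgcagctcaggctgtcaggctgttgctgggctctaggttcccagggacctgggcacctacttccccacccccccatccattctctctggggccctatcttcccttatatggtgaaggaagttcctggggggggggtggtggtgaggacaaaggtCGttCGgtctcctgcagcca
Sis: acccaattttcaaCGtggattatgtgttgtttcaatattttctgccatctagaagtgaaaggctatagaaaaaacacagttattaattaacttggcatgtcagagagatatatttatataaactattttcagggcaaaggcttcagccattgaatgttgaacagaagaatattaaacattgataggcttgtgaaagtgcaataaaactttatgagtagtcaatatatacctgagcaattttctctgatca

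The Ezr promoter held 32 CGs, and 4.85% of the 18191 promoters in the range of the table held as many or more. That of Car4 held 11, that of Vil1 5, and those of Lct, Cdhr2 and Sis 1 each. The promoters of Alpi and of the first of 2 annotated starts of Muc13 held 0, and that of the second start of Muc13 held 4. The median over all promoters was 6. The motif CCGG, which reads the same on both strands, contains a CG and is the cut site usual in this assay, occurred 5 times in Ezr, 1 time in Car4 and 1 time in Vil1. It was not found in the windows of the other 5 genes, and 47.7% of all promoters held it. Of promoters with 21 or more CGs, 95.5% held CCGG and 2.40% had a listed position. Among those with 11 to 20 CGs, as in Car4, 4.15% had one, and over all promoters 3.60%. The absence of listed positions from the CG-rich Ezr promoter was thus shared with nearly all promoters of its kind. A position enters the table only if at least 1 library has a level of 40% or more there, because no level from 1 to 39 occurs and no row is 0 throughout. A promoter that was read and had low levels and one that was not read therefore cannot be told apart.

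**Figure D1:**
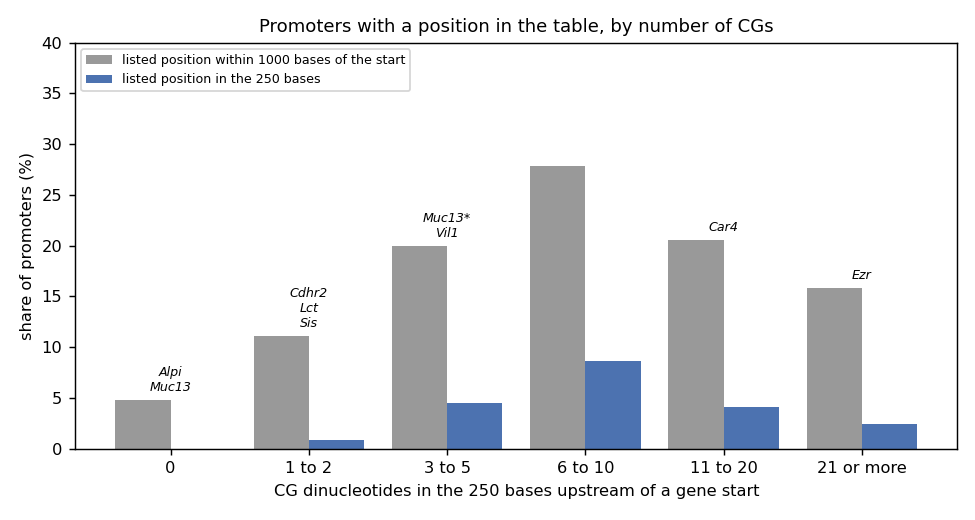
Share of promoters (%, vertical axis) with at least 1 position in the methylation table, by the number of CG dinucleotides in the 250 bases upstream of the start (horizontal axis). Gray bars count positions within 1000 bases of the start and blue bars positions in the 250 bases; gene names stand over the class of each gene (Muc13* is its second start), and the blue bar is 0% for promoters without CG and 8.65% at most.

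Around the gene starts only 2 of the 8 genes had any listed position within 1000 bases, and none had a complete site. Over all promoters, 17.6% had a listed position this near. In Alpi, which encodes the brush border enzyme intestinal alkaline phosphatase, positions 87101264 and 87101265 of chromosome 1 lay 342 and 341 bases inside the gene from its start. Position 87101265 had 100% in control replicate 3, 100% and 88% in DM-aKG replicates 1 and 3, and no value in the other 3 libraries. Position 87101264 had 100% in DM-aKG replicates 1 and 3 only. In Car4, which encodes a carbonic anhydrase anchored in the apical membrane, position 84957400 of chromosome 11 lay at -354 bases, upstream of the start. It had 61% and 43% in control replicates 1 and 3, 54% and 47% in DM-aKG replicates 1 and 2, and no value in control replicate 2 and DM-aKG replicate 3. In the other 6 genes the listed position nearest the start was 5033 bases away in Ezr, 5408 in Vil1, 5683 in Cdhr2, 8777 in Lct, 12394 in Muc13 and 74190 in Sis.

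At the opposite ends of the genes, 2 genes had listed positions within 1000 bases, 7 in Alpi and 3 in Muc13. No low or unvalued stretch was found at these 2 ends, the only gene ends with enough listed positions to hold one. Such a stretch was taken as at least 3 consecutive listed positions, each with a mean of its values under 80% or with no value in at least 3 libraries. There were only 13 listed positions near ends in which to find one, and 5 of the 8 genes had none. Near starts Alpi had 2 and Car4 1, too few for a stretch, so the starts could not be searched. Each of these start positions was itself low or without a value in at least 3 libraries. When ends were taken as 2000 bases, 36 positions fell near them and 1 stretch appeared, in Cdhr2. Its 3 positions, 54734683, 54734719 and 54734738 of chromosome 13, were at 100% in control replicates 1 and 3 and had no value in the other 4 libraries.

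**Figure D2:**
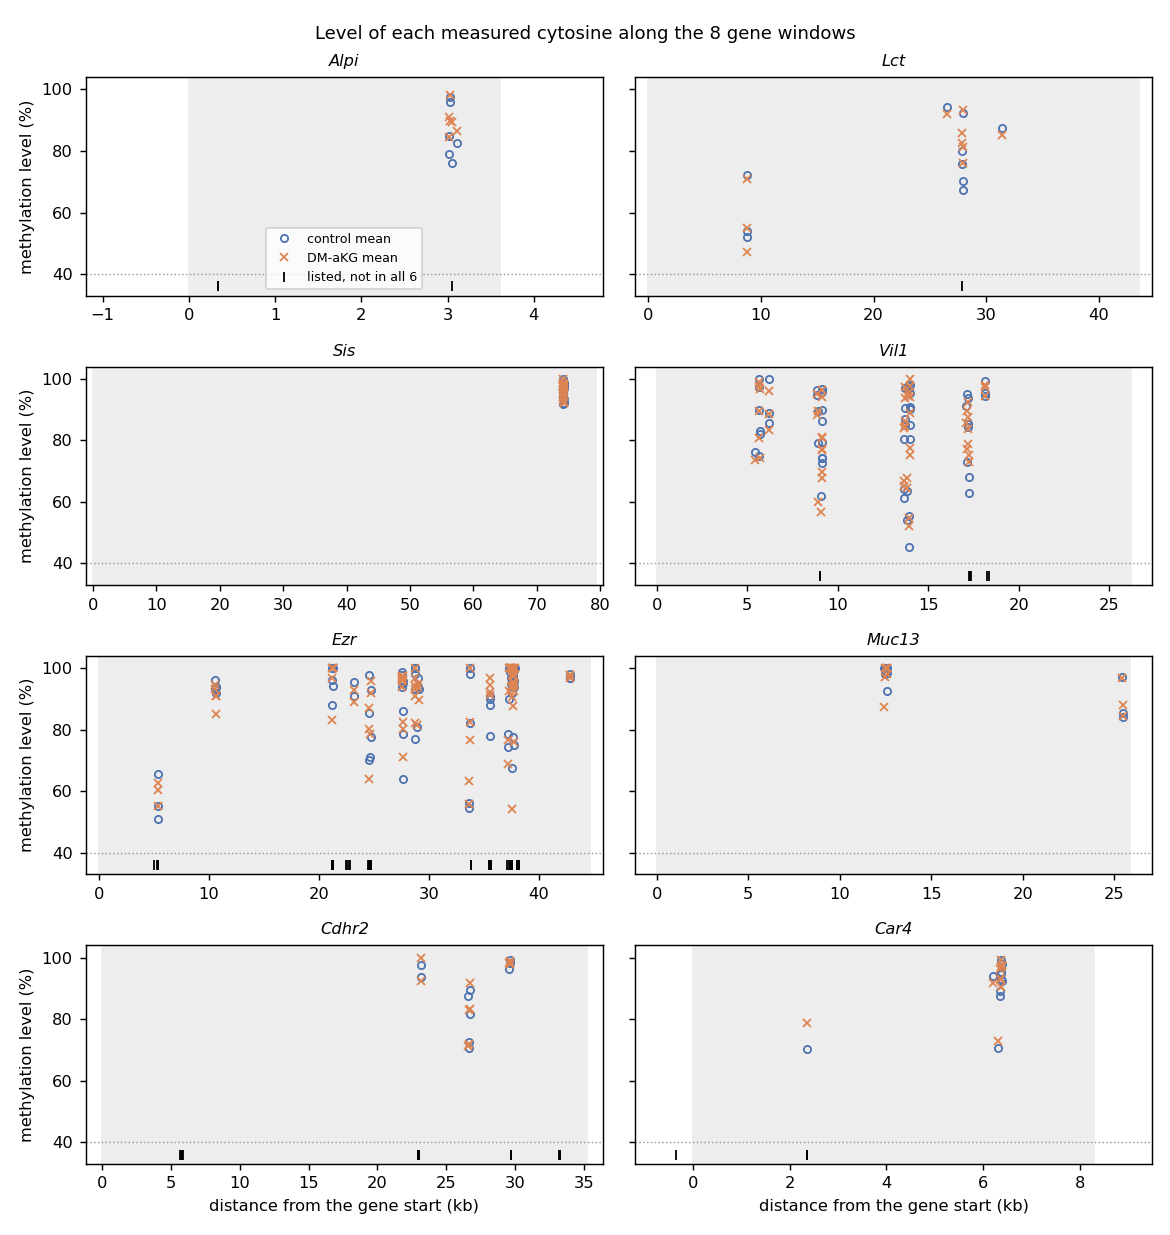
Methylation level (%, vertical axis) of each complete site against its distance from the gene start in kb (horizontal axis), with the mean of 3 controls as circles and of 3 DM-aKG libraries as crosses; the gray band is the gene span, the dotted line the lowest level in the table (40%), and ticks are listed positions without a value in all 6 libraries. Sites sit in a few clusters per gene, none of them within 1000 bases of a start.

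The mean level of the complete sites ordered the genes from Lct (75.8% over the 6 libraries) through Vil1 (83.4%), Alpi (88.0%), Cdhr2 (88.8%), Ezr (90.1%), Car4 (90.5%) and Muc13 (95.3%) to Sis (96.4%). The median over all tested genes was 89.0%. Lct lay apart from its neighbour, with libraries between 71.0% and 78.2% against 82.0% to 83.9% in Vil1. From Vil1 to Car4 each neighbouring pair had overlapping library ranges, and Muc13 (93.0% to 96.5%) lay above Car4 (84.7% to 92.0%) and overlapped Sis (95.6% to 97.7%). These are levels of different sites in different positions, and they speak for the sites measured and not for whole genes. Exons and introns were not used here, so sites are placed only by their distance from gene ends.

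Over all 272327 complete sites the control libraries averaged 87.5% ± 0.731 and the treated ones 88.6% ± 0.282 (SD, 3 libraries each), 1.05 points higher (exact two-sided permutation p = 0.1, the smallest that 3 against 3 allows). Control replicate 1 stood lowest at 86.7%, against 87.9% and 88.0%, and without it the difference was 0.629 points. The median difference over all genes was 0.733 points, with 6098 genes higher and 3043 lower. Read depth behind the levels is unknown, and neighbouring positions may share reads.

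None of the 8 genes differed between DM-aKG and control by limma with Benjamini-Hochberg adjustment over all 9197 genes; their adjusted p-values ran from 0.782 to 0.976. None had an unadjusted p under 0.05 either, and the share of all genes past the adjusted threshold was 0%, with 6.23% (573 genes) under an unadjusted 0.05. In all 8 genes the control and treated libraries overlapped, while 13.8% of all genes had groups that did not overlap. No listed level lies under 40%, so a site below that in any library is not complete. Falls below 40% therefore escape the main tests of gene and site levels, and the mean levels leave such sites out. Of the 8 genes 4 were higher and 4 lower with DM-aKG, and the median difference was 0.0132 points. It ranged from -0.315 to 0.992 points when single libraries were left out. These directions include the offset between the groups over the whole table. With library means equalised, the median over all genes was -0.317 points, that of the 8 genes -1.04, and 3 of the 8 were higher and 5 lower.

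**Figure D3:**
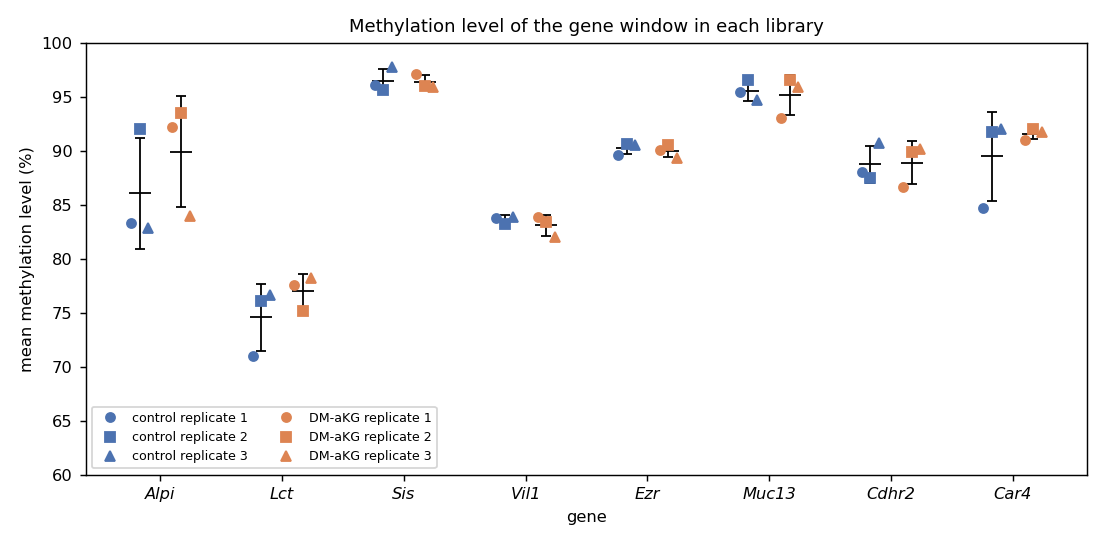
Mean methylation level (%, vertical axis from 60%) of the complete sites of each gene window (horizontal axis) in each library; symbols mark replicates, colours the groups, and black bars the mean and SD of 3 libraries. Groups overlap in every gene, and control replicate 1 is the lowest library in Lct and Car4.

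Among the digestive enzymes, Alpi (chromosome 1, 87098002 to 87101606) had the widest spread between libraries. Its 6 complete sites, all near the end of the gene, averaged 83.3%, 92.0% and 82.8% in the control libraries and 92.2%, 93.5% and 84.0% with DM-aKG. The low libraries were control replicates 1 and 3 and DM-aKG replicate 3, and the other 3 were at 92% or more. The difference was 3.83 points (95% interval -4.56 to 12.2, limma adjusted p = 0.782). It was 6.81 points without control replicate 2, and 2.03 without DM-aKG replicate 2. The window of the lncRNA gene Gm29371 holds the same 6 sites, which lie outside its own span. Spans of Usp37, Sytl3, Gm15658 and Gprin1 reach into the windows of Vil1, Ezr, Muc13 and Cdhr2 and share 0 sites with them.

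Lct (chromosome 1, 128284756 to 128328318), which encodes the milk sugar enzyme lactase, had 71.0%, 76.1% and 76.6% in the controls and 77.6%, 75.2% and 78.2% with DM-aKG over 10 sites. Control replicate 1 was the low one, and DM-aKG replicate 2 lay inside the control range. The difference was 2.43 points (95% interval -1.97 to 6.83, limma adjusted p = 0.799), and without control replicate 1 it was 0.650. At 6 of the 10 sites the mean over the libraries was under 80%. The lowest pair, at 128319540 and 128319541 of chromosome 1, about 8.8 kb into the gene, had 49.7% and 54.5%. Position 128319540 was at 55%, 52% and 49% in the controls and 45%, 47% and 50% with DM-aKG, so the groups overlapped at the edge.

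Sis (chromosome 3, 72888557 to 72967863) encodes sucrase-isomaltase, which splits sucrose and starch products, and all of its 19 sites lay in 1 cluster of chromosome 3 from 72893578 to 72893673, 5 kb before the end of the gene. Every site had a value in every library, and site means ran from 92.0% to 100%. The libraries had 96.1%, 95.6% and 97.7% in the controls and 97.1%, 95.9% and 95.9% with DM-aKG. That is a difference of -0.14 points (95% interval -2.67 to 2.39, limma adjusted p = 0.949), and the groups cannot be ordered. It was 0.5 points without control replicate 3. Nothing was listed in the 74 kb from the start to this cluster.

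Car4 (chromosome 11, 84957754 to 84966054) had 84.7%, 91.7% and 92.0% in the controls and 91.0%, 92.0% and 91.7% with DM-aKG over 11 sites. A single library, control replicate 1, was low and the other 5 lay within 1 point of each other. At position 84960108 of chromosome 11 it had 41%, against 80% and 90% in the other controls and 83%, 78% and 75% with DM-aKG. The gene's difference was 2.09 points (95% interval -2.99 to 7.17, limma adjusted p = 0.815), and without control replicate 1 it was -0.288.

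Of the genes for the core of the microvillus, Vil1 (chromosome 1, 74409384 to 74435560) encodes the actin-bundling protein villin. Its 54 sites averaged 83.8%, 83.2% and 83.9% in the controls and 83.9%, 83.4% and 82.0% with DM-aKG. DM-aKG replicate 3 was the lowest library, and the difference was -0.537 points (95% interval -2.90 to 1.82, limma adjusted p = 0.929). Without that library it was 0.00617. Site means in Vil1 ran from 50% to 98.8%, with an SD of 12.7 points over sites. At 19 sites, 35.2%, the mean was under 80%, against 20.9% of all complete sites of the table.

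Intermediate levels in Vil1 lay close to high ones. About 13.9 kb into the gene, positions 74423310 and 74423311 of chromosome 1 had 53.8% and 50% over the 6 libraries. Position 74423310 was at 59%, 51% and 56% in the controls and 45%, 57% and 55% with DM-aKG. Only 41 bases before it, position 74423269 had 94%, 99% and 97% in the controls and 94%, 91% and 98% with DM-aKG. The intermediate and the high level were both found in all 6 libraries.

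Ezr (chromosome 17, 6738131 to 6782780) encodes ezrin, which links the actin core to the membrane, and it had the most measured positions of the 8 genes, 142 listed and 84 complete. The libraries had 89.6%, 90.6% and 90.6% in the controls and 90.1%, 90.6% and 89.4% with DM-aKG. All 6 libraries lay within 1.27 points of each other, the narrowest span of the 8 genes. The difference was -0.27 points (95% interval -2.52 to 1.98, limma adjusted p = 0.949), and 0.0536 without DM-aKG replicate 3. At 40 sites the mean was 95% or more.

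The complete sites nearest the start of Ezr were among its least methylated. These 3 sites, at 6777349, 6777400 and 6777401 of chromosome 17, lay about 5.4 kb into the gene. They had means of 53.2%, 64.2% and 57.8%, against a median of 94.4% over the gene's sites. Position 6777349 was at 49%, 58% and 46% in the controls and 49%, 62% and 55% with DM-aKG. Position 6777401 was at 42%, 62% and 62% in the controls and 53%, 60% and 68% with DM-aKG. Next to them, nearer the start, lay 4 positions that had no value in at least 3 libraries. The nearest of all, 6777747, was at 100% in control replicates 2 and 3 and had no value elsewhere, and 6777521 was at 79% and 78% in these controls and 66% in DM-aKG replicate 1. With them the 7 positions from 6777349 to 6777747 formed a stretch of low or missing values. All 7 had a value in control replicate 2, 5 in control replicate 3, 4 in each DM-aKG library and 3 in control replicate 1.

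At 1 place in Ezr the strands of a CpG differed widely and in the same direction in all libraries. Position 6745193 had 76%, 68% and 59% in the controls and 50%, 61% and 52% with DM-aKG. The neighbouring cytosine of the opposite strand, 6745194, had 96%, 88% and 92%, then 86%, 94% and 92%. The second was higher in all 6 libraries, by 30.3 points on average. Of 73 such pairs in the 8 genes this was the only one with a difference of 20 points or more in the same direction in all libraries, against 0.641% of the 102040 pairs in the table. The median difference between strands was 2.50 points in the 8 genes and 2.33 in all pairs. The Ezr pair at 6745193 was singled out after its values were seen.

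Cdhr2 (chromosome 13, 54701463 to 54736662) encodes a protocadherin that joins the tips of neighbouring microvilli. Its 10 complete sites had 88.0%, 87.5% and 90.7% in the controls and 86.6%, 89.9% and 90.2% with DM-aKG. The highest and the lowest library differed by 4.10 points and came from different groups. The difference was 0.167 points (95% interval -3.42 to 3.76, limma adjusted p = 0.976), and it turned negative when control replicate 1 (-0.200) or 2 (-0.450) was left out, and likewise for treated replicate 2 (-0.333) or 3 (-0.483). With each 0 counted as a level of 0 it was -13.6 points (adjusted p = 0.610).

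Muc13 (chromosome 16, 33794037 to 33819929) encodes a mucin that spans the apical membrane. Its libraries had 95.4%, 96.5% and 94.7% in the controls and 93.0%, 96.5% and 95.9% with DM-aKG over 10 sites. DM-aKG replicate 1 was the lowest, and the difference was -0.4 points (95% interval -3.50 to 2.70, limma adjusted p = 0.949). Without that library it was 0.667, and without control replicate 2 0.0833. Muc13 was the only one of the 8 genes with complete sites both near an end and deeper inside. The 3 sites near its end had 90.3%, 88.3% and 87.7% in the controls and 88.3%, 90.3% and 90.3% with DM-aKG. The 7 sites around the middle of the gene had 97.6%, 100% and 97.7%, then 95%, 99.1% and 98.3%. The mean of the end sites was lower in all 6 libraries, and end minus middle was -8.73 ± 1.87 points (SD over 6 libraries, at the same sites). This rests on 1 CpG, whose 2 cytosines at 33819509 and 33819510 had means of 86.0% and 84.8%. The third end site, 33819475, had 96.8%, within the 93.7% to 100% of the sites around the middle. The contrast therefore does not describe the gene end as a whole.

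**Figure D4:**
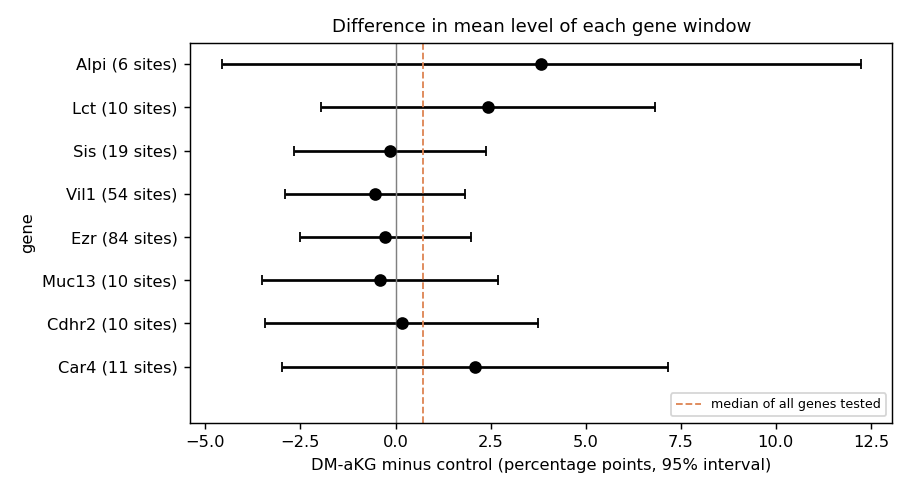
Difference in mean level, DM-aKG minus control, in percentage points (horizontal axis) for each gene (vertical axis, with its number of complete sites); bars are 95% intervals from limma on untransformed levels with 3 libraries a group, and the dashed line is the median of all tested genes (0.733). All 8 intervals include 0, and those of Ezr, Vil1 and Sis stay within 2.90 points of it.

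No single site passed either. By limma on untransformed levels with Benjamini-Hochberg adjustment over all 272327 sites, 0 of the 204 sites in the 8 genes passed 0.05, as did 0% of all sites, and the smallest adjusted p among them was 0.679. An unadjusted p under 0.05 was found at 7 of the 204 (3.43%), against 5.44% of all sites. On log2 odds 407 sites of the table passed and none of them lay in the 8 genes. Groups did not overlap at 15 sites (7.35%), against 7.13% in the table. Of these 5 were higher with DM-aKG (background 4.63%) and 10 lower (background 2.5%). The 10 include both cytosines of 1 CpG, 74418498 and 74418499 in Vil1.

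The site with the smallest p lay in Cdhr2 at 54728082 of chromosome 13, 26619 bases into the gene. It had 85%, 94% and 84% in the controls and 72%, 71% and 71% with DM-aKG. All treated libraries were below all controls, with a difference of -16.3 points (SE 3.00, limma adjusted p = 0.679). Its neighbour on the opposite strand was not listed. The next listed positions, 54728105 and 54728106, were higher with DM-aKG by 10.3 and 1.33 points, with overlapping groups. In Ezr, position 6749054 was at 100% in the 3 controls and at 81%, 92% and 57% with DM-aKG, and position 6758173 at 100%, 100% and 93%, then 92%, 82% and 67%. Position 6772091 of Ezr had 96%, 94% and 92% in the controls and 84%, 89% and 82% with DM-aKG. The differences at these 3 Ezr sites were -23.3, -17.3 and -9 points (limma adjusted p = 0.872, 0.872 and 0.808). Without DM-aKG replicate 3 the first was -13.5 and the second -10.7 points. The opposite strand did not share the first fall, nor the second in DM-aKG replicates 1 and 2. In DM-aKG replicate 3, where the second site was lowest, the opposite strand had no value, so this is unknown. Position 6749053, the neighbour of 6749054, had 100%, 94% and 100% in the controls and 100% in each treated library. Position 6758172, the neighbour of 6758173, was at 100% in the 3 controls and in DM-aKG replicates 1 and 2, without a value in DM-aKG replicate 3.

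In Vil1, position 74418295 had 80%, 79% and 78% in the controls and 69%, 40% and 71% with DM-aKG, where 1 library made most of the difference of -19 points. It was -9 points without DM-aKG replicate 2. At 74418294, its neighbour on the opposite strand, the difference was 0 points. Position 74418498 had 93%, 95% and 82%, then 81% in each treated library, and position 74423194 went the other way, with 57%, 49% and 56% and then 68%, 68% and 58%. Position 74418498 was tied at a difference of 9 points in size with 74418499, also lower, and with 74423389, which was higher. Position 74423389 had 96%, 89% and 88% in the controls and 100% in each treated library (limma adjusted p = 0.811). Its neighbour on the opposite strand, 74423388, had a difference of -0.333 points. Muc13 had 1 site with groups apart, 33806431, at 100% in the 3 controls and at 73%, 97% and 92% with DM-aKG. That of Lct, 128300359, had 61%, 75% and 75% in the controls and 80%, 83% and 81% with DM-aKG. Apart from 74423389, these sites of Vil1, Muc13 and Lct had limma adjusted p = 0.872. The Muc13 difference was -12.7 points, and -5.5 without DM-aKG replicate 1, and that of Lct 11 points, and 6.33 without control replicate 1. The opposite-strand neighbours of 74423194 in Vil1 and of the Lct site were also higher, by 4 and 8.67 points. No site with groups apart was found in Alpi, Sis or Car4.

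A missing value can mean a low level or too few reads, and the 8 genes differed in how many they had. Sis and Muc13 had a value at every listed position in all 6 libraries. In Lct 10 of 11, in Vil1 54 of 64, in Car4 11 of 15 and in Alpi 6 of 9 positions were complete. In Ezr 84 of 142 (59.2%) and in Cdhr2 10 of 28 (35.7%) were complete, and these 2 genes held 76 of the 94 incomplete positions. Over all listed positions 69.8% were complete.

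The share of listed positions with a value did not pass the test in any of the 8 genes (limma adjusted p = 0.572 to 1 over 9379 genes, of which 0.416%, 39 genes, passed). That count of 39 rested on the exact set of libraries and became 93 to 257 when any one was left out. None of the 8 genes passed with any single library left out. None had an unadjusted p under 0.05 (9.33% of all genes did). In none did the groups lie apart, against 8.93% of all genes (2.65% higher and 6.28% lower with DM-aKG). Cdhr2 had values at 21, 21 and 24 of its 28 positions in the controls and at 21, 20 and 13 with DM-aKG. DM-aKG replicate 3 was the low one, and the shares were 78.6% ± 6.19 and 64.3% ± 15.6 (SD, n = 3). Without that library the difference was -5.36 points, against -14.3 with it. Ezr had values at 111, 132 and 125 of 142 positions in the controls and at 122, 103 and 118 with DM-aKG, with the groups overlapping. Vil1, with the smallest p of the 8 genes, had 59, 57 and 63 of 64 in the controls and 56, 58 and 56 with DM-aKG, also overlapping. Positions valued in controls only numbered 6 in Vil1, 9 in Ezr, 3 in Cdhr2 and 0 in Alpi. Those valued with DM-aKG only numbered 0, 4, 2 and 1.

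**Figure D5:**
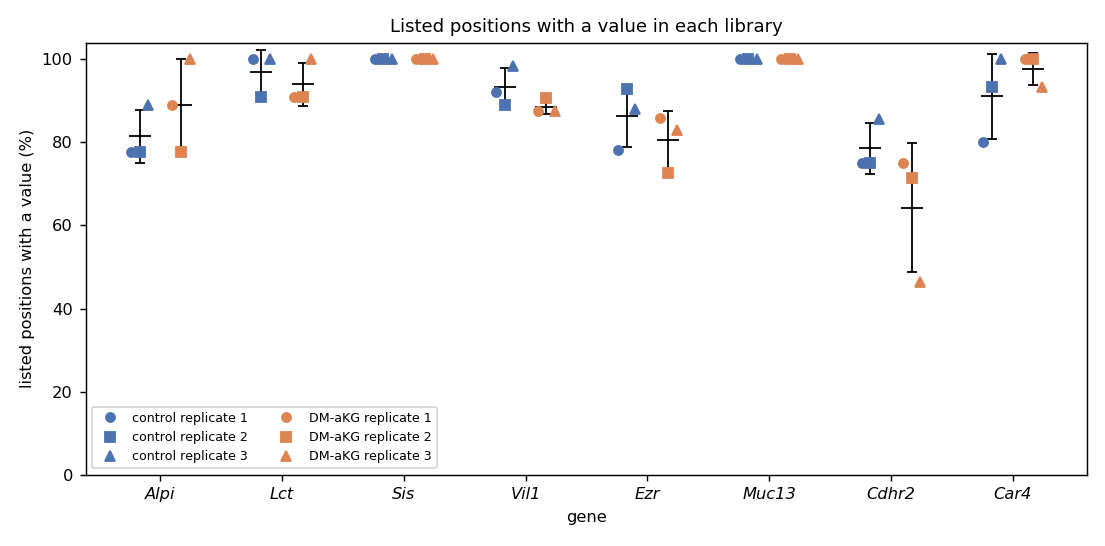
Share of listed positions with a value (%, vertical axis) in each library for each gene (horizontal axis), with the mean and SD of 3 libraries as black bars. Sis and Muc13 are at 100% throughout, and DM-aKG replicate 3 has a value at 46.4% of the Cdhr2 positions.

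Inside the genes, away from their ends, 16 stretches of 3 or more consecutive low or unvalued positions were found, in Lct, Vil1, Ezr and Cdhr2. Of these 7 held only low positions with values, and 9 held positions without a value in at least 3 libraries. In several of the latter, neighbours lacked a value in the same libraries. The longest, 8 positions in Vil1 from 74426612 to 74426738, held 6 with values only in control replicate 3 or in control replicates 1 and 3. In Cdhr2 the 4 positions from 54707272 to 54707302 were at 100% in control replicates 2 and 3 and DM-aKG replicate 1 and had no value in the other 3 libraries. In Ezr the 4 positions from 6747252 to 6747345 had values in control replicates 2 and 3 only. In Ezr the 6 positions from 6758220 to 6758268, of which 2 had no value in at least 3 libraries, averaged 57.1% over their 25 values, and none was 100%. The 3 Ezr positions from 6744589 to 6744601 averaged 92.0% over 5 values. Stretches inside genes were counted beyond the planned search of the ends.

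The lowest sites of the 8 genes were 14 with a mean under 65%, all in Lct, Vil1 and Ezr. At 12 of them the groups overlapped. The other 2 were 74423194 in Vil1, given above, and 6749126 in Ezr, with 53%, 57% and 54% in the controls and 59%, 71% and 60% with DM-aKG (8.67 points higher, SE 3.73, limma adjusted p = 0.872).

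Of a list of 65 further brush border and enterocyte genes 23 could be tested, 34 lay outside the part of the table used, 7 had too few sites and 1 was not matched by symbol. None passed the adjusted threshold (smallest limma adjusted p = 0.764), 10 were higher and 13 lower with DM-aKG, and the median difference was -0.333 points, against 0.733 over all genes. Groups did not overlap in 4 of the 23, 3 higher and 1 lower, beside the 13.8% of all genes. The smallest p belonged to Cubn, which encodes the vitamin B12 receptor cubilin. It had 81.5%, 84.1% and 84.0% in the controls and 86.2%, 86.2% and 90.3% with DM-aKG (4.37 points higher, limma adjusted p = 0.764). Slc15a1, the gene of the peptide transporter of the brush border, had 93.5%, 91.6% and 94.1%, then 94.6%, 95.9% and 94.9%. Ggt1, a glutathione-cleaving surface enzyme, had 92.9%, 87.0% and 83.9% in the controls and 78.8%, 77.1% and 86.2% with DM-aKG, with overlapping groups. Slc9a3, the sodium-proton exchanger of the brush border, had 97.7%, 98.1% and 98.7%, then 97.2%, 97.9% and 96.8%.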

How the data were processed

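DNA methylation was measured in 6 libraries, 3 control and 3 DM-aKG. The deposited table gives, for each library, the percent methylated at a cytosine in whole numbers. CASAVA 1.8, Novoalign 3.08.02 and mm10 are named without roles, per the submitters' processing notes; the caller and any coverage minimum are not named there. The table has no coverage, so no interval from reads and no coverage minimum were possible.

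Only the first 390208 of 813850 rows were used. In them libraries correlated across positions at 0.598 to 0.770; in the later rows control replicates 1 and 2 correlated with the other 4 libraries at -0.00376 to 0.00247. A 0 was treated as no value. Positions count from 1: in RefSeq promoter windows 4499 of 4504 listed positions fell on a CG this way, and 2499 if counted from 0.

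Gene levels are means of complete sites, at least 3 a window, tested on log2 odds (offset 0.01) by limma 3.58.1 under R 4.3.3; intervals come from untransformed levels. Sites and the share of positions with a value (at least 5 listed positions) were tested on untransformed percents. Adjustment was by Benjamini-Hochberg over all features, with a threshold of 0.05. The tests were tried on simulated data.

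The genes, lists and alternatives were chosen with earlier results of these data known. Named are the 8 genes, the 4 listed genes with the smallest p, genes whose spans reach into their windows, and up to 3 sites per gene, those with the largest differences among sites with groups apart. Further sites, and 2 genes that passed under an alternative, were named after their values were seen. Sequences and gene starts are from RefSeq.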

Additional observations from a re-analysis of the deposited data

How the results depend on the processing

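None of the 8 genes, and none of their sites, passed the adjusted threshold under any alternative that was run. Over all genes the count of 0 became 1 on untransformed levels or with an offset of 0.05 (Tmem200c in both), 1 with at least 1 site (BC147527) and 7 with each 0 counted as a level of 0; it stayed 0 with any library left out. The count of sites became 407 on log2 odds and ranged from 0 to 9 with single libraries left out. The 39 genes whose share of valued positions passed became 9 with library means equalised, 12 with at least 10 positions and 7 with the replicate block, and 93 to 257 with single libraries left out. The difference in the mean over all sites was 0.418 points with every valued position (exact permutation p = 0.2), -0.531 with each 0 counted as a level, and 0.629 to 1.28 with single libraries left out. Ends of 2000 bases gave 1 stretch. With each 0 counted as a level, Cdhr2 was at -13.6 and Slc15a1 at -1.81 points, Ezr at -6.00, Vil1 at -5.12, Alpi at 10.8, Car4 at 5.33, Lct at 0.606, Slc9a3 at -15.4 and Ggt1 at -26.4 (limma unadjusted p = 0.00033, adjusted 0.175); Sis and Muc13 have no 0. Cdhr2 was also at -0.884 with library means equalised and at -0.833 with neighbouring positions averaged. With single libraries left out, differences changed sign in Sis (-0.579 to 0.5 points), Vil1 (-0.938 to 0.00617), Ezr (-0.591 to 0.0536), Muc13 (-1.08 to 0.667), Cdhr2 (-0.483 to 1.32) and Car4 (-0.288 to 3.35); the cause was not tested. Of 377 recomputed differences 361 kept direction and side of the threshold and 16 changed sign. Settings that change only the scale, offset, variance estimate or block leave the difference itself as it was, by construction. So do minimum numbers of sites or positions that a gene already meets. Where the difference stays as it was only the side of the threshold could change, so the 361 overstate how stable the directions are.

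The labels tie same-numbered libraries by their number only. The correlations of their deviations from the group means were 0.0189, -0.00860 and 0.0149. Control replicates 1 and 3 correlated best with the treated library of their own number, and control replicate 2 with DM-aKG replicate 3 (0.0179). Values this near 0 cannot show whether the libraries were paired. The replicate block left 0 genes and 0 sites called.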
